A study of Mus musculus with 6 samples.

Results

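The comparison set the 2 estradiol arrays against the 2 doxycycline arrays of a mouse fibroblast clone, 4 of the 6 arrays of the series. The arrays were chosen by their labels, not by any measured value. All 4 came from NIH3T3 fibroblasts, an immortalised mouse line, grown in DMEM with 10% FCS. Every cell carried the oncogenes c-myc and Ha-ras behind a Tet-off promoter, which doxycycline keeps silent. Every cell also made IRF-1hER at all times. In this fusion IRF-1, which switches on interferon-response genes, is joined to a hormone-binding domain that estradiol turns on. Both groups thus carried the same transgenes, and they differed in treatment. The doxycycline group was labelled with doxycycline at 2 µg/ml (oncogenes off). The estradiol group had no doxycycline (oncogenes on) and estradiol for 48 h, at 1 mM as the label reads (fusion active). The title of doxycycline replicate 2 also names estradiol, while its treatment entry names doxycycline alone, and it was kept in the doxycycline group as that entry places it. The groups differed in doxycycline, in oncogene state and in estradiol at once, so the contributions of these cannot be told apart. The cells were 1 clone, and the labels do not say whether the replicates were separate cultures. P-values therefore take in no more than the spread among these 4 arrays, and part or all of it may be technical.

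Myc binds DNA with its partner Max and is known for raising genes of ribosome assembly, nucleotide supply and cell division. Ras signals through the kinases RAF, MEK and ERK to genes of proliferation and of feedback inhibition. IRF-1 binds interferon-response elements in the promoters of antiviral and antigen-presentation genes and is known to slow cell growth.

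Each array read 12422 probe sets apart from the manufacturer's controls. A probe set is a group of short probes against 1 transcript, and its signal is a brightness with no absolute unit. The median signal lay between 49.7 and 52.6 on the 4 arrays. The number of arrays, 2 a group, limits the precision of every value. Differences are given as estradiol minus doxycycline in log2(signal + 32). Adding 32 before the logarithm damps the noise of dim probe sets and understates their fold change. The lists below name a gene by its brightest probe set.

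Several arrays stood apart from their labels. Estradiol replicate 1 differed at least 2-fold from the withdrawal array of replicate 1, which had no estradiol and is outside this comparison, in 18 of 12422 probe sets. That was the smallest number of the 15 array pairs. It differed from estradiol replicate 2 in 285 and from doxycycline replicate 1 in 525. The 2 doxycycline arrays differed in 325. Interferon-induced genes were bright on doxycycline replicate 2 and dim on both estradiol arrays, although the labels place the active fusion in the estradiol group. Isg15, a ubiquitin-like antiviral protein, had a signal of 158.8 on doxycycline replicate 1, 4709.4 on doxycycline replicate 2, 299.1 on estradiol replicate 1 and 110.8 on estradiol replicate 2. Estradiol replicate 1 lay above and estradiol replicate 2 below doxycycline replicate 1. The groups are called here by their treatment entries alone. Results that rest on doxycycline replicate 2 are given with and without it.

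The fibroblast label held for most of its markers. Col1a1, a chain of collagen I, gave signals of 6870.6 and 6527.2 with doxycycline and 4304.7 and 4801.1 with estradiol. Of 12 fibroblast markers measured, Vim (5.9 to 40.7) and Fap (1.0 to 10.9) were near the bottom of the scale. The summed signal of the 12 was 30028 and 27546 with doxycycline and 21047 and 16032 with estradiol, with 7 lower without overlap and none higher. Pdgfra and Dcn, which are among the 12, were the furthest apart. Markers of other cells gave low sums. The 12 leukocyte markers summed to 694 and 690 with doxycycline and 640 and 685 with estradiol, with the pan-leukocyte gene Ptprc at 3.1 to 7.4. The 8 epithelial markers summed to 257 and 288 against 216 and 214, with Epcam at 0.7 to 8.1. The 8 endothelial markers summed to 236 and 246 against 187 and 232, with Cdh5 at 1.4 to 5.5. The 8 skeletal muscle markers summed to 279 and 254 against 233 and 276, and the 6 adipocyte markers to 176 and 99 against 159 and 146, with Adipoq at 5.8 to 13.2. Each of these lists also held brighter members. Cd14 of the leukocyte list was at 257.4 to 379.1, the epithelial Cdh1 at 96.9 to 171.6 and the endothelial Eng at 107.1 to 133.5. Myog of the muscle list was at 39.5 to 107.7 and Cebpa of the adipocyte list at 29.4 to 78.0. In RNA from a whole culture, fewer cells of a kind and less RNA per cell cannot be told apart. The part of these marker levels in the results was not tested.

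Across the genome-wide array, most of the measured genes of DNA replication (42 of 44), mitosis (42 of 48) and ribosome assembly (47 of 52) were higher with estradiol in both replicate numbers. Most interstitial matrix (28 of 42) and lysosomal genes (27 of 36) were lower in both. Of the 8251 named genes, 2569 were higher and 2388 lower in both replicate numbers, the background for such counts here and below. The difference was at least 2-fold in both replicate numbers for 135 probe sets in the higher direction (1.09%) and for 92 in the lower direction (0.741%). A further 12 were at least 2-fold apart in opposite directions. In 2962 probe sets (23.8%) both estradiol arrays lay above both doxycycline arrays, and in 2587 (20.8%) both lay below. Among the 8251 named genes these shares were 24.5% and 22.1%, which are the background for every count of list members without overlap below. With limma and Benjamini-Hochberg adjustment over all probe sets, 0 of 12422 passed an adjusted p of 0.05 (0.0%), and the smallest adjusted p was 0.162. The unadjusted p was under 0.05 for 1677, of which 950 were higher (7.65%) and 727 lower (5.85%), against 621 expected by chance.

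When the 40% of probe sets with the lowest signals were left out, 128 of 7453 passed limma's adjusted p of 0.05 (1.72%). Of these 86 were higher (1.15%) and 42 lower (0.564%), and all 128 were at least 2-fold apart in both replicate numbers. With the replicate number as a block in that fit, 332 passed, among them the same 128. With all 6 arrays in that fit, so that the withdrawal group shared the estimate of the spread, 0 passed. Without doxycycline replicate 1 it was 562, without doxycycline replicate 2 it was 284, without estradiol replicate 1 it was 223 and without estradiol replicate 2 it was 0. "Passed" below refers to the fit without the dim probe sets, since no gene passed over the full array, and its adjusted p is called the adjusted p without dim probe sets. The cut of that filter lay at a signal of 29.32. A gene under it in 1 group could thus enter through the other group, as Cck, Ptprv, Mybl2 and Nid2 did, with both signals of a group under it. Other genes that passed had 1 signal of a group under the cut, among them Pmf1, H1f2 and Ifnar1.

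**Figure D1:**
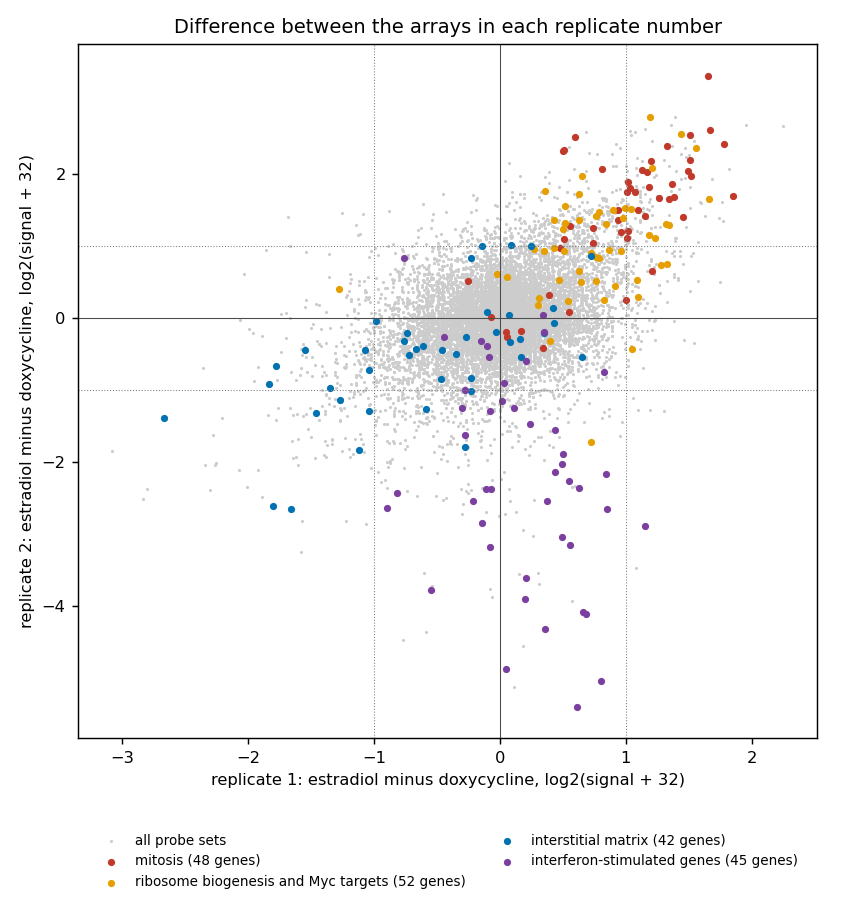
Difference between the estradiol and doxycycline arrays in log2(signal + 32), replicate 1 on the horizontal and replicate 2 on the vertical axis, with 1 point per probe set (grey) or listed gene (colours) and dotted lines at 2-fold. Mitosis and ribosome biogenesis genes lie mostly above 0 on both axes, many interstitial matrix genes lie below 0 on both, and interferon-stimulated genes lie low on the replicate 2 axis alone.

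Genes of the mitotic apparatus were furthest above 0. Of 48 mitosis genes measured, 41 were higher without overlap between the groups and none was lower, 26 were at least 2-fold higher in both replicate numbers, and 20 passed. The median difference was 1.41 (1.02 in replicate 1, 1.65 in replicate 2 and 1.03 without doxycycline replicate 2), against 0.00 over the 8251 named genes of the array. Cdc20, the activator of the anaphase-promoting complex, had signals of 827.8 and 412.2 with doxycycline and 2929.9 and 2330.8 with estradiol. Every estradiol value was above every doxycycline value, and the difference was 2.10 (SE 0.35, adjusted p without dim probe sets 0.0339 with limma). Cdk1, the kinase that drives entry into mitosis, had signals of 490.7 and 262.8 against 1283.4 and 1497.6 (1.85, SE 0.31). Mki67, which codes for the proliferation marker Ki-67, went from 65.0 and 31.3 to 277.4 and 355.1 (2.14, SE 0.30), although its other probe set differed by only 0.02. The groups were apart for both Cdk1 and the brighter Mki67 probe set, and estradiol replicate 2 was the highest array for each.

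Kinases and their partners were among the members that passed. Plk1, a polo-like kinase of spindle assembly, was read by 3 probe sets, at differences of 2.02 (SE 0.39), 1.42 (SE 0.26) and 1.38 (SE 0.42). The first gave 100.7 and 29.1 with doxycycline and 309.6 and 359.5 with estradiol, and the second, which was the brightest, gave 246.3 and 150.4 against 536.6 and 603.0. Those 2 passed, and the third, at 29.7 and 47.1 against 91.9 and 235.1, did not. Aurka, the Aurora A kinase of the spindle poles, was at 85.3 and 47.6 against 237.6 and 325.7 (1.68, SE 0.30). Cks2, a small subunit of cyclin-dependent kinases, was at 210.0 and 108.6 against 655.8 and 784.3 (2.02, SE 0.30). For Aurka and Cks2 the lower estradiol value was well above the higher doxycycline value.

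The same held for structural parts of the division machinery. Pmf1, a kinetochore protein, had the largest difference in the higher direction among the named genes, at 2.50 (SE 0.42), from signals of 44.6 and 9.0 to 207.7 and 388.9. Its mean doxycycline signal, 26.8, lay under the filter's cut. Ect2, an exchange factor needed for cytokinesis, was at 48.3 and 55.1 against 257.6 and 249.2 (1.77, SE 0.23). Smc2, a condensin subunit, was at 49.4 and 35.2 against 201.6 and 229.3 (1.74, SE 0.25). Replicates of a group lay close together for Ect2 and Smc2. Mybl2, the B-Myb factor that switches on mitotic genes, was at 17.5 and 10.8 against 107.3 and 143.0 (1.76, SE 0.28), with both doxycycline signals under the filter's cut. Tubg1, the gamma-tubulin of the centrosome, and Gtse1, a microtubule-bound protein of the G2 and S phases, passed as well, at 2.00 (SE 0.32) and 2.31 (SE 0.25). Members at the other end included Zwint at -0.01 (SE 0.31), Cenpc1 at -0.10 (SE 0.25) and Foxm1, a mitotic transcription factor, at 0.31 (SE 0.28), whose groups overlapped. Ndc80 and Cenpe were below a signal of 12 on all 4 arrays.

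**Figure D2:**
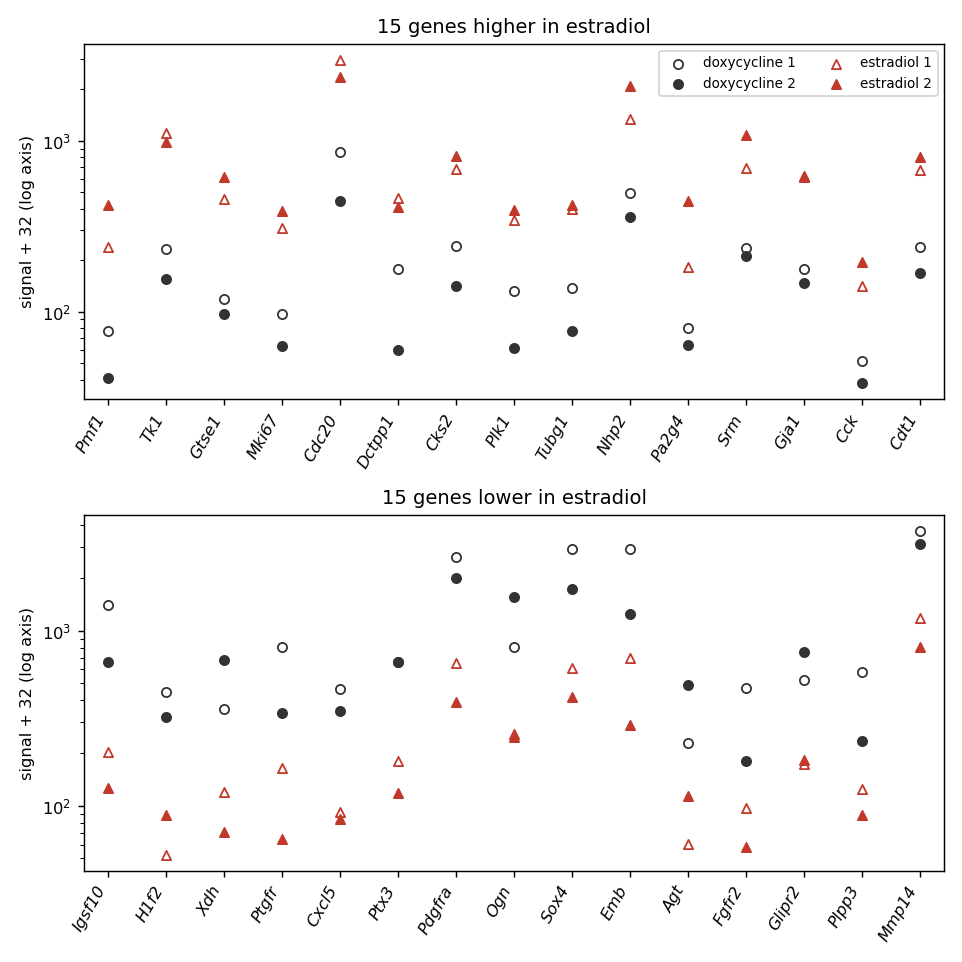
Signal + 32 on a log axis for the 15 genes with the largest higher and the 15 with the largest lower difference, 1 symbol per array. For each of the 30 genes both estradiol arrays (triangles) lie on the same side of both doxycycline arrays (circles).

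DNA replication genes were higher too, by less. Of 44 measured, 38 were higher without overlap and none was lower, 11 were at least 2-fold higher in both replicate numbers and 6 passed. The median was 0.99 (0.69 in replicate 1, 1.28 in replicate 2). Cdt1, which loads the replicative helicase at origins, had signals of 205.7 and 135.7 with doxycycline and 641.2 and 772.4 with estradiol (1.88, SE 0.25). Pcna, the sliding clamp, was at 251.2 and 169.6 against 698.1 and 1021.0 (1.88, SE 0.28). Both passed, and doxycycline replicate 2 was the lowest of the 4 arrays for both. Mcm7 of the helicase, Pola1 and Pola2 of the priming polymerase and Rfc5 of the clamp loader passed at 1.44 (SE 0.26), 1.24 (SE 0.23), 1.44 (SE 0.23) and 1.39 (SE 0.22). Mcm3, Mcm5 and Top2a, the topoisomerase of replicated chromosomes, differed by 1.61 (SE 0.33), 1.63 (SE 0.47) and 1.81 (SE 0.44) with adjusted p without dim probe sets of 0.0523, 0.0877 and 0.0624 by limma. A dimmer probe set of Mcm3 passed, at 116.7 and 52.2 against 284.4 and 357.3 (1.65, SE 0.33). Orc4 and Orc5, subunits of the origin recognition complex, gave 0.13 (SE 0.27) and 0.07 (SE 0.23), and their groups overlapped.

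Enzymes that supply nucleotides followed. Of 23 measured, 17 were higher and 1 lower without overlap, 6 were at least 2-fold higher in both replicate numbers and 3 passed, with a median of 0.86 (0.59 and 1.17). Tk1, the thymidine kinase of the S phase, was at 202.1 and 123.4 with doxycycline and 1078.3 and 946.9 with estradiol. Its difference of 2.45 (SE 0.26) was at least 2-fold in both replicate numbers, 2.25 and 2.66. Shmt1, which makes 1-carbon units in the cytosol, was at 84.0 and 75.9 against 299.0 and 345.3 (1.66, SE 0.22). Prps1, the first step towards purine and pyrimidine nucleotides, was at 160.5 and 129.6 against 376.5 and 604.5 (1.53, SE 0.28). These 3 were the members that passed. Rrm2, the regulated subunit of ribonucleotide reductase, differed by 1.83 (SE 0.41, adjusted p without dim probe sets 0.0573 by limma). Dctpp1, which clears non-standard deoxynucleotides and is in none of the lists, was at 145.0 and 27.7 against 431.2 and 377.5 (2.08, SE 0.50) and did not pass. Dhodh, of pyrimidine synthesis, was the member lower without overlap, at 254.4 and 317.9 against 233.6 and 186.3.

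The promoters of these genes are shown because E2F and the cell cycle homology region, CHR, are the known elements of S phase and mitotic promoters. Motifs were searched on both strands in RefSeq windows of build GRCm38.p6 that run from 250 bases before to 50 after a start. The letters were TTTNNCGC for E2F, TTTGAA for CHR, CCAAT for the CCAAT box, CACGTG for the E-box and, for the interferon-stimulated response element (ISRE), GAAA, any 2 bases and GAAA again. None of these was required to stand apart from another. TTTNNCGC lay in the windows of 15 of the 39 replication genes that have one (38.5%), of 4 of 41 mitosis genes (9.76%) and of 5.93% of all 27025 genes. TTTGAA lay in 27 of 41 mitosis genes (65.9%), in 8 of 39 replication genes (20.5%) and in 20.2% of all genes. CCAAT lay in 30 of 41 mitosis genes (73.2%), in 25 of 39 replication genes (64.1%) and in 41.1% of all genes. Among the 15 genes with the largest higher difference, 13 had a window. TTTNNCGC lay in 1 of those 13 (7.69%), TTTGAA in 4 (30.8%) and CCAAT in 8 (61.5%). Among the 15 largest lower, the counts were 0, 2 and 4 of 13. A match is a run of letters and was not tested as a binding site. The bases before the start are printed for Uhrf1, which maintains DNA methylation at the replication fork (chr17:56303087-56303336, plus strand), for Cdk1 (chr10:69352913-69353162, minus strand) and for Cdc20 (chr4:118437344-118437593, minus strand). Capitals mark TTTNNCGC or its complement in Uhrf1 and TTTGAA or its complement in the other two.
Uhrf1: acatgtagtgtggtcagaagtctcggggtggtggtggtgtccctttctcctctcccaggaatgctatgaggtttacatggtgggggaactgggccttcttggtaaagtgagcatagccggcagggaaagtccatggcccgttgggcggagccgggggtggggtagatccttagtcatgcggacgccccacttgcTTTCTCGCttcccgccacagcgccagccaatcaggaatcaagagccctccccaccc
Cdk1: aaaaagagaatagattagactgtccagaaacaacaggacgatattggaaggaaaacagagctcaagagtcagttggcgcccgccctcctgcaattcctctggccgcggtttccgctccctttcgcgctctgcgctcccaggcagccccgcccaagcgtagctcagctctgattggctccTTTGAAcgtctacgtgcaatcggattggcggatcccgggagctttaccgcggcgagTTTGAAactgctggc
Cdc20: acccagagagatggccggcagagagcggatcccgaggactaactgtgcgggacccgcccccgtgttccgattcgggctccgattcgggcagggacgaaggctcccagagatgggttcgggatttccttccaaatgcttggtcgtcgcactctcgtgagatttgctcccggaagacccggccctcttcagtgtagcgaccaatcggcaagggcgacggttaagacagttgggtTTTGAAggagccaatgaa
Uhrf1 had signals of 131.7 and 28.2 with doxycycline and 411.9 and 195.9 with estradiol (1.68, SE 0.55) and did not pass. The nearest match lay 56 bases before the start in Uhrf1, 15 in Cdk1 and 18 in Cdc20.

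Genes that control the step from G1 to S moved less as a group. Of 15 measured, 8 were higher and 2 lower without overlap, 2 were at least 2-fold higher in both replicate numbers and 1 passed, with a median of 0.29, or 0.18 without estradiol replicate 2. Ccnd1, cyclin D1, which activates Cdk4 and Cdk6, was read by a pair of probe sets. The first gave 148.6 and 135.7 with doxycycline and 332.9 and 609.0 with estradiol, a difference of 1.47 (SE 0.31). The second gave 148.8 and 127.8 against 401.1 and 185.6, a difference of 0.85 (SE 0.36). Both estradiol arrays lay above both doxycycline arrays in each probe set, but the order of the 2 estradiol arrays was opposite. Neither passed, with adjusted p without dim probe sets of 0.0573 and 0.206 by limma. Tfdp1, the partner that E2F factors need to bind DNA, was the member that passed, at 301.4 and 210.8 against 677.6 and 804.2 (1.44, SE 0.24). Ccne1, cyclin E1, differed by 0.58 (SE 0.23) and Cdk4 by 0.29 (SE 0.29).

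Of 7 inhibitors of cyclin-dependent kinases, 2 were lower (28.6%) and 1 higher (14.3%) without overlap, against 22.1% and 24.5% of all named genes. None passed. Cdkn2c, which blocks Cdk4 and Cdk6, was at 773.5 and 752.3 with doxycycline and 508.2 and 250.7 with estradiol (-1.02, SE 0.33). Cdkn1b, the inhibitor p27, was at 113.7 and 55.8 against 29.6 and 29.3 (-0.88, SE 0.33). Cdkn1a, the inhibitor p21, overlapped between the groups in both of its probe sets. Its brighter one gave 1233.1 and 1465.8 against 1603.0 and 718.0 (-0.31, SE 0.39).

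The oncogenes and the factor could be read only in part. No probe set carried the symbol Hras. Myc was at 62.3 and 49.6 with doxycycline and 31.9 and 28.1 with estradiol, a difference of -0.50 (SE 0.25, adjusted p 0.467 over all probe sets by limma). Irf1 was at 219.1 and 319.8 against 224.7 and 155.2 (-0.44, SE 0.28), and its groups overlapped. The labels do not say whether these mouse probe sets read the transgenes. Of the 11 genes of the Myc network, 3 were higher and 3 lower without overlap (27.3% each), against 24.5% and 22.1% of all named genes. Max, the partner of Myc, was at 141.8 and 115.4 against 163.9 and 333.4 (0.74, SE 0.34), and Mnt, an antagonist, was at 223.9 and 192.7 against 108.2 and 137.4 (-0.64, SE 0.23). None of the 11 passed.

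Genes of ribosome assembly and reported Myc targets were higher in both replicate numbers. Of 52 measured, 46 were higher without overlap and none was lower, 10 were at least 2-fold higher in both replicate numbers and 4 passed, with a median of 0.90 (0.76 and 0.95). Nhp2, a core protein of the particles that modify ribosomal RNA, had signals of 459.6 and 326.0 with doxycycline and 1306.2 and 2064.1 with estradiol (2.00, SE 0.30). Nop56, a nucleolar protein of the methylating particles, was at 260.5 and 294.6 against 893.7 and 982.8 (1.65, SE 0.19), and replicates of a group lay close together. Srm, spermidine synthase, was at 203.8 and 179.3 against 664.8 and 1053.4 (1.96, SE 0.27). Bop1, a factor of the large ribosomal subunit, was at 93.9 and 99.4 against 258.4 and 519.4 (1.64, SE 0.34). These 4 were the members that passed. Pa2g4, a nucleolar growth regulator, differed by 1.99 (SE 0.45) and did not pass, and another of its probe sets had the opposite sign. Ncl, nucleolin, was at 1654.7 and 1628.0 against 4202.9 and 2746.2 (1.04, SE 0.28), and Odc1, the first enzyme of polyamine synthesis, differed by 1.00 (SE 0.27). Prmt1 was split, at 673.0 and 595.4 against 1127.9 and 159.0.

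The E-box CACGTG, the element that Myc and Max bind, lay in the windows of 15 of the 45 genes of this list that have one (33.3%), of 7 of 39 replication genes (17.9%), of 2 of 41 mitosis genes (4.88%) and of 8.09% of all genes. Among the 15 largest higher genes it lay in 1 of 13 with a window (7.69%), and among the 15 largest lower also in 1 of 13. It is shown in capitals for Nop2, a methyltransferase of ribosomal RNA (chr6:125131633-125131882, plus strand), where it lay 60 bases before the start.
Nop2: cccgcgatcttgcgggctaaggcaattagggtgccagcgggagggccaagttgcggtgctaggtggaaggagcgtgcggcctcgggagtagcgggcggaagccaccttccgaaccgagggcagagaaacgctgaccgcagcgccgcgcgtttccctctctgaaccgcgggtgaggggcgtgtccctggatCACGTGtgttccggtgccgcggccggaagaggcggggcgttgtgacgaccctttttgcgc
Nop2 had signals of 231.7 and 273.4 with doxycycline and 451.2 and 554.2 with estradiol (0.91, SE 0.21), with the groups apart, and did not pass.

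Other growth-related lists leaned the same way with smaller differences. Of 46 translation factors and tRNA synthetases, 26 were higher and 1 lower without overlap, with a median of 0.48 and none past the test. Farsa, a subunit of phenylalanyl-tRNA synthetase, was at 176.1 and 142.2 against 348.6 and 417.8 (1.12, SE 0.22). Of 34 genes of the constitutive proteasome, 29 were higher without overlap and none lower, with a median of 0.45, and the largest difference was 0.94 (SE 0.22) for Psma6. Of 33 cytosolic ribosomal proteins, 12 were higher without overlap, with a median of 0.17, or 0.01 without estradiol replicate 1, and Rpl13a passed at 590.8 and 623.4 against 1343.4 and 1851.8 (1.33, SE 0.23). Of 73 respiratory chain and ATP synthase genes, 34 were higher and 7 lower, with a median of 0.25. Cyc1, cytochrome c1, was at 1479.3 and 1514.6 against 2962.8 and 3198.1 (1.02, SE 0.22). Another Cyc1 probe set went the opposite way, at 1353.3 and 1691.4 against 1219.9 and 687.4 (-0.70, SE 0.31). None of the proteasome or respiratory genes passed.

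Of 20 glycolysis genes, 11 were higher and 2 lower without overlap, with a median of 0.51, or 0.29 without doxycycline replicate 1, and 1 passed. That gene was Pgam1, phosphoglycerate mutase, at 944.8 and 957.4 with doxycycline and 2226.4 and 2869.2 with estradiol (1.38, SE 0.23). Slc2a1, the glucose transporter GLUT1, was at 165.4 and 254.5 against 378.9 and 574.6 (1.07, SE 0.29). Ldha, lactate dehydrogenase A, was at 3140.4 and 2965.9 against 7690.1 and 4955.4 (1.01, SE 0.32). The groups were apart for both, and neither passed. Of 25 heat shock and chaperonin genes, 16 were higher and 2 lower, with a median of 0.56 and none past the test in its brightest probe set. Cct3, a chaperonin subunit, was at 690.8 and 856.9 against 1913.8 and 1664.6 (1.18, SE 0.22). A dimmer probe set of Cct3 passed, at 387.6 and 411.1 against 908.4 and 1153.9 (1.29, SE 0.21). Hspe1, the mitochondrial co-chaperonin, differed by 1.20 (SE 0.27).

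Lipid synthesis was mixed. Of 15 fatty acid genes, 5 were higher and 1 lower without overlap, with a median of 0.01. Acsl5, which activates long-chain fatty acids, passed at 62.0 and 125.4 against 286.7 and 447.6 (1.68, SE 0.34). Acly, which makes cytosolic acetyl-CoA, was at 905.0 and 710.9 against 1881.4 and 1583.3 (1.08, SE 0.23). Of 17 cholesterol genes, 3 were higher and none lower, with a median of -0.01. Fdps, of isoprenoid synthesis, was low on estradiol replicate 2 alone, at 4833.7 and 3778.9 against 5037.3 and 1239.8.

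Targets and feedback inhibitors of ERK signalling did not lean one way. Of 31 measured, 8 were higher and 8 lower without overlap (25.8% each), near the 24.5% and 22.1% of all named genes. The median was -0.02 (0.26 and -0.06), and none passed. Dusp6, a phosphatase of ERK, was at 207.2 and 140.9 with doxycycline and 426.9 and 355.4 with estradiol (1.05, SE 0.25). Fosl1, an AP-1 factor, was at 80.8 and 65.4 against 136.8 and 222.3 (0.98, SE 0.29). Epha2, a receptor kinase, differed by 1.12 (SE 0.28) and Plaur, the urokinase receptor, by 1.13 (SE 0.28). In all 4 genes the groups were apart. Jund, another AP-1 factor, was lower, at 2298.6 and 1890.3 against 1489.3 and 1536.3 (-0.45, SE 0.22).

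**Figure D3:**
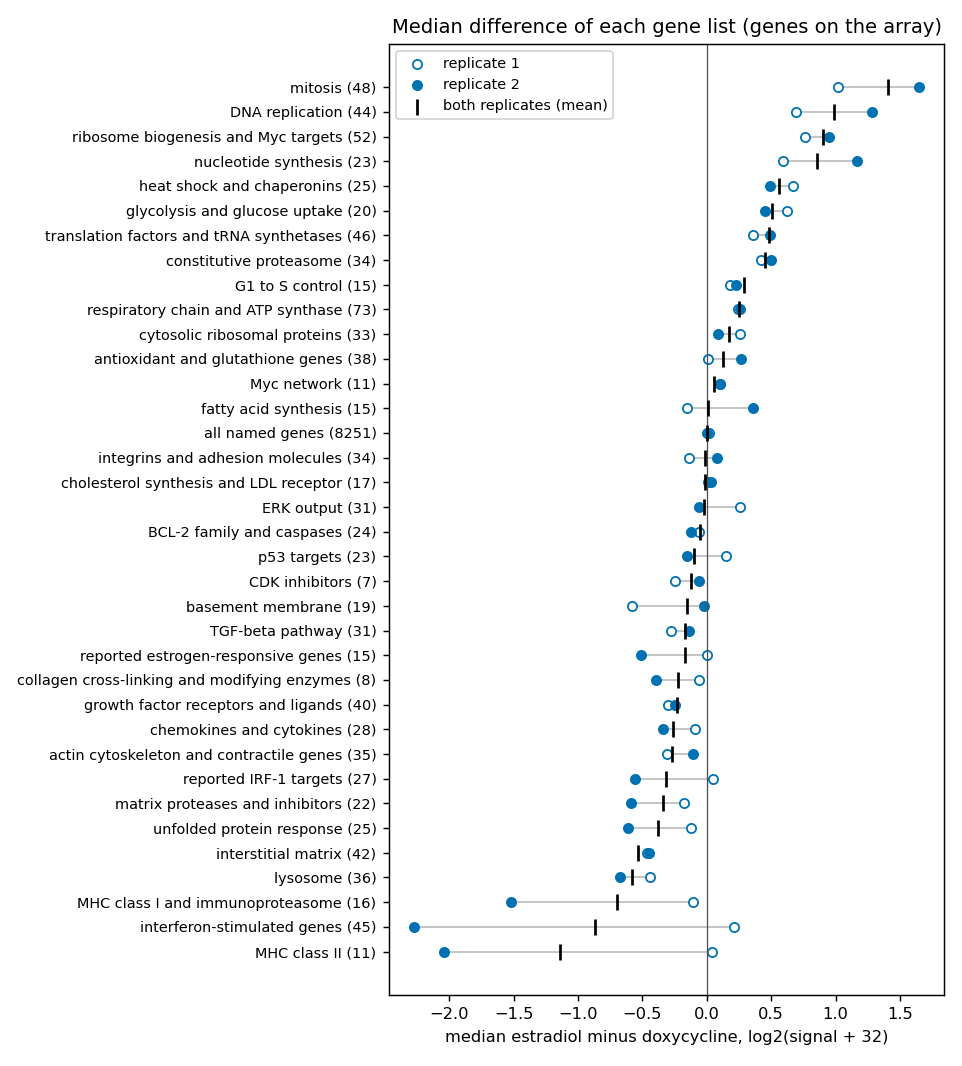
Median difference between estradiol and doxycycline arrays, in log2(signal + 32), of each gene list in replicate 1 (open circles), in replicate 2 (filled circles) and for the mean of both (ticks). Mitosis has the highest median, 1.41, and MHC class II the lowest, -1.14, where the replicates part at 0.04 and -2.04.

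Genes of the interstitial matrix were lower with estradiol. Of 42 measured, 25 were lower and 4 higher without overlap, 7 were at least 2-fold lower in both replicate numbers and 2 passed, with a median of -0.53 (-0.46 and -0.45). Ogn, the small proteoglycan osteoglycin, had signals of 778.6 and 1523.0 with doxycycline and 224.0 and 214.4 with estradiol (-2.16, SE 0.33). Col8a1, a network-forming collagen, was at 697.3 and 774.1 against 232.5 and 290.5 (-1.39, SE 0.21). Both passed, and in each the 2 estradiol arrays lay close together. Dcn, decorin, was at 1136.5 and 560.2 against 302.5 and 64.5 (-2.21, SE 0.62), and Tnc, tenascin C, at 524.3 and 460.2 against 223.9 and 105.4 (-1.48, SE 0.33). Col1a2 was at 8208.1 and 9197.1 against 5438.8 and 3806.5 (-0.93, SE 0.33). Estradiol replicate 2 was the lowest array for these 3, none of which passed. A dimmer Col1a2 probe set overlapped between the groups, at 329.4 and 403.9 against 445.8 and 331.3 (0.07, SE 0.23). Eln, elastin, went the other way, at 73.5 and 97.8 against 142.1 and 202.4 (0.79, SE 0.27).

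Enzymes that shape the matrix were lower as well. Of 22 matrix proteases and inhibitors, 14 were lower and 1 higher without overlap, with a median of -0.34, or -0.17 without estradiol replicate 2 and -0.21 without doxycycline replicate 2, and 2 past the test. Mmp14, a membrane-bound collagenase, was at 3653.9 and 3082.1 with doxycycline and 1146.9 and 776.0 with estradiol (-1.80, SE 0.27). Timp3, an inhibitor of metalloproteinases, was at 1107.9 and 810.8 against 355.6 and 295.0 (-1.46, SE 0.23). The protease and the inhibitor thus both lay lower, and both passed. Timp2, which also takes part in the activation of Mmp2 by Mmp14, was at 1770.9 and 1332.0 against 652.6 and 331.5 (-1.65, SE 0.34). Of 8 cross-linking and modifying enzymes, 3 were lower without overlap. Lox, lysyl oxidase, was at 3907.4 and 2139.4 against 1118.2 and 780.7 (-1.60, SE 0.35) and did not pass. Of 19 basement membrane genes, 6 were lower and 1 higher, with a median of -0.15 (-0.58 and -0.02), which ran from -0.41 without estradiol replicate 2 to -0.02 without estradiol replicate 1, and -0.03 without doxycycline replicate 1. Nid2, nidogen 2, passed at 84.8 and 95.8 against 20 and 2.6 (-1.53, SE 0.30), with both estradiol signals under the filter's cut.

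Contractile and TGF-beta genes differed by less. Of 35 actin and contractile genes, 12 were lower and 2 higher without overlap, with a median of -0.27, or -0.15 without doxycycline replicate 1. Vcl, vinculin of focal adhesions, was at 1038.5 and 856.8 against 537.1 and 447.8 (-0.90, SE 0.21), and Acta2, smooth muscle actin, at 396.2 and 151.1 against 111.7 and 103.7 (-1.0, SE 0.41). Tagln2, transgelin 2, was higher, at 976.0 and 1005.6 against 1661.4 and 1614.6 (0.71, SE 0.20). Of 31 TGF-beta pathway genes, 15 were lower and 1 higher, with a median of -0.17, or -0.28 without estradiol replicate 2. Tgfb3, a ligand, differed by -0.95 (SE 0.26) and Tgfbr3, a co-receptor, by -0.99 (SE 0.25). No gene of these lists passed. Of 34 integrins and adhesion molecules, 8 were higher (23.5%) and 10 lower (29.4%), against 24.5% and 22.1% of all named genes. Their median was -0.01. Gja1, the gap junction protein connexin 43, passed, at 145.1 and 115.1 with doxycycline and 593.0 and 581.8 with estradiol (1.94, SE 0.21).

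Of 28 chemokines and cytokines, 13 were lower and 3 higher without overlap, with a median of -0.26, or -0.13 without doxycycline replicate 2, and 3 passed. In both replicate numbers 16 were lower and 4 higher. Cxcl5, a neutrophil attractant, was at 435.2 and 317.2 with doxycycline and 60.5 and 52.1 with estradiol (-2.20, SE 0.25). Cxcl1, of the same receptor, was at 350.7 and 519.3 against 128.9 and 120.8 (-1.55, SE 0.25). Csf1, the macrophage growth factor, was at 1418.7 and 1323.6 against 569.5 and 537.2 (-1.26, SE 0.19). The 2 estradiol arrays lay close together in these 3 genes. Ccl2 and Ccl7, monocyte attractants, differed by -0.87 (SE 0.22) and -0.96 (SE 0.20) without passing. Ptx3, a secreted pattern recognition protein of no list, passed at 633.2 and 630.6 against 146.9 and 86.3 (-2.19, SE 0.26). Ccl5 was high on doxycycline replicate 2 alone, at 4.8 and 2027.8 against 24 and 16.9.

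Of 40 growth factor receptors, ligands and binding proteins measured, 19 were lower and 7 higher without overlap, 4 were at least 2-fold lower in both replicate numbers and 1 passed, with a median of -0.23. In both replicate numbers 21 of the 40 were lower and 8 higher. Pdgfra, the alpha receptor of platelet-derived growth factor, passed at 2586.7 and 1965.6 with doxycycline and 617.4 and 359.9 with estradiol (-2.18, SE 0.31). A dim probe set of the same gene had the opposite sign. Fgfr2, a fibroblast growth factor receptor, was at 440.0 and 147.9 against 64.9 and 26.3 (-1.95, SE 0.51), and its ligand Fgf7 at 1433.6 and 790.0 against 462.9 and 84.6 (-2.19, SE 0.68). Ghr, the growth hormone receptor, was at 534.3 and 395.5 against 193.1 and 93.9 (-1.55, SE 0.33). For each of these receptors and for Fgf7 estradiol replicate 2 was the lowest array.

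Of 36 lysosomal genes measured, 26 were lower and 2 higher without overlap, with a median of -0.58 (-0.44 and -0.67), and none was at least 2-fold lower in both replicate numbers or passed. Lamp2, a membrane protein of lysosomes, was at 1047.2 and 1292.5 with doxycycline and 576.4 and 523.1 with estradiol (-1.04, SE 0.21). Ctsb, cathepsin B, was at 3300.8 and 4029.9 against 1952.6 and 1501.7 (-1.08, SE 0.26), and Npc2, which carries cholesterol, at 4925.1 and 6249.0 against 2685.5 and 1519.3 (-1.44, SE 0.35).

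Of 25 genes of the unfolded protein response measured, 13 were lower and 3 higher without overlap, and none passed. Their median was -0.38 (-0.12 and -0.61 by replicate number). Leaving out doxycycline replicate 2 gave -0.31, and leaving out estradiol replicate 1 gave -0.59. Ddit3, the death-linked factor CHOP, was at 270.7 and 481.2 against 130.7 and 96.6 (-1.45, SE 0.31). The chaperone Hspa5 differed by -0.65 (SE 0.23) and the disulfide isomerase Pdia4 by -1.02 (SE 0.22). Atf4, the factor of the amino acid response, and its target Asns, asparagine synthetase, were among the 3 higher ones, at 0.63 (SE 0.23) and 0.71 (SE 0.22).

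Antiviral genes divided the 2 doxycycline arrays rather than the 2 groups. Of 45 interferon-stimulated genes measured, none was higher and 7 were lower without overlap (15.6%, against 22.1% of all named genes), and none passed. Their median was -0.87 over both replicate numbers, 0.21 in replicate 1 and -2.27 in replicate 2. Without doxycycline replicate 2 it was 0.11. Doxycycline replicate 2 was the highest of the 4 arrays for 42 of the 45 (27.2% of all probe sets), and at least 2-fold above each other array for 34 (0.942% of all probe sets). Ifit3, which binds viral RNA complexes, had signals of 52.0 and 2339.1 with doxycycline and 54.9 and 48.5 with estradiol. Usp18, which removes Isg15 from proteins, was at 20.5 and 1702.4 against 35.6 and 54.7. Irgm2, an interferon-induced GTPase, was at 95.6 and 1464.7 against 55.2 and 76.9. The 2 estradiol arrays thus lay near doxycycline replicate 1 in each. Irf9, the DNA-binding part of the complex that carries the type I interferon signal, was lower on both estradiol arrays than on either doxycycline array, at 103.0 and 342.5 against 40.4 and 27.9 (-1.77, SE 0.50, adjusted p without dim probe sets 0.0733 by limma). Without doxycycline replicate 2 the Irf9 difference was -1.04.

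The ISRE, which IRF proteins and the Irf9 complex bind, is shown because these genes moved together on 1 array. The ISRE letters lay in the windows of 18 of the 37 interferon-stimulated genes that have one (48.6%), of 2 of 39 replication genes (5.13%) and of 3.99% of all genes. Among the 15 genes with the largest higher difference it lay in none of 13 with a window, and among the 15 largest lower in 1 of 13. Capitals mark it or its complement in Isg15 (chr4:156200819-156201068, minus strand) and in Ifit1, a sensor of viral RNA (chr19:34640639-34640888, plus strand).
Isg15: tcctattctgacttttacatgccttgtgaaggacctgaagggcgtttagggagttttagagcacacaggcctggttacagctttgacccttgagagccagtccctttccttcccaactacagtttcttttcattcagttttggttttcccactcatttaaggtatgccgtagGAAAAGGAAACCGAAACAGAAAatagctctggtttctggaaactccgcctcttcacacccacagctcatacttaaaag
Ifit1: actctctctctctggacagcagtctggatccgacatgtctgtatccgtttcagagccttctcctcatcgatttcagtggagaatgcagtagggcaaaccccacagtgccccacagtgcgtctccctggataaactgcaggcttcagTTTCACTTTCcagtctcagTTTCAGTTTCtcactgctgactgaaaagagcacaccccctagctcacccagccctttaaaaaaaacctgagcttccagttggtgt
The capitals in Isg15 join 3 overlapping matches, the nearest 66 bases before the start, and Ifit1 holds 2, at 85 and 104 bases. Ifit1 had signals of 41.9 and 2362.5 with doxycycline and 84.6 and 109.6 with estradiol.

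Antigen presentation genes followed the same array. Of 11 MHC class II genes, 4 were lower and 1 higher without overlap, with a median of -1.14, or 0.09 without doxycycline replicate 2. Cd74, the invariant chain, was at 43.4 and 2742.7 with doxycycline and 53.3 and 86.0 with estradiol, and H2-Aa at 4.8 and 1316.5 against 7.7 and 6.5. Of 16 class I and immunoproteasome genes, 7 were lower and none higher, with a median of -0.70, or -0.06 without doxycycline replicate 2. B2m, the light chain of class I, was at 2363.1 and 5474.1 against 1405.6 and 1567.7 (-1.26, SE 0.41), below both doxycycline arrays. Without doxycycline replicate 2 the B2m difference was -0.66. H2-T18, a non-classical class I gene, passed at 210.5 and 352.8 against 64.2 and 88.3 (-1.51, SE 0.30), and its difference did not rest on doxycycline replicate 2 alone, at -1.17 without it. MHC class I genes are close relatives of each other, and their probe sets may read more than 1 of them.

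**Figure D4:**
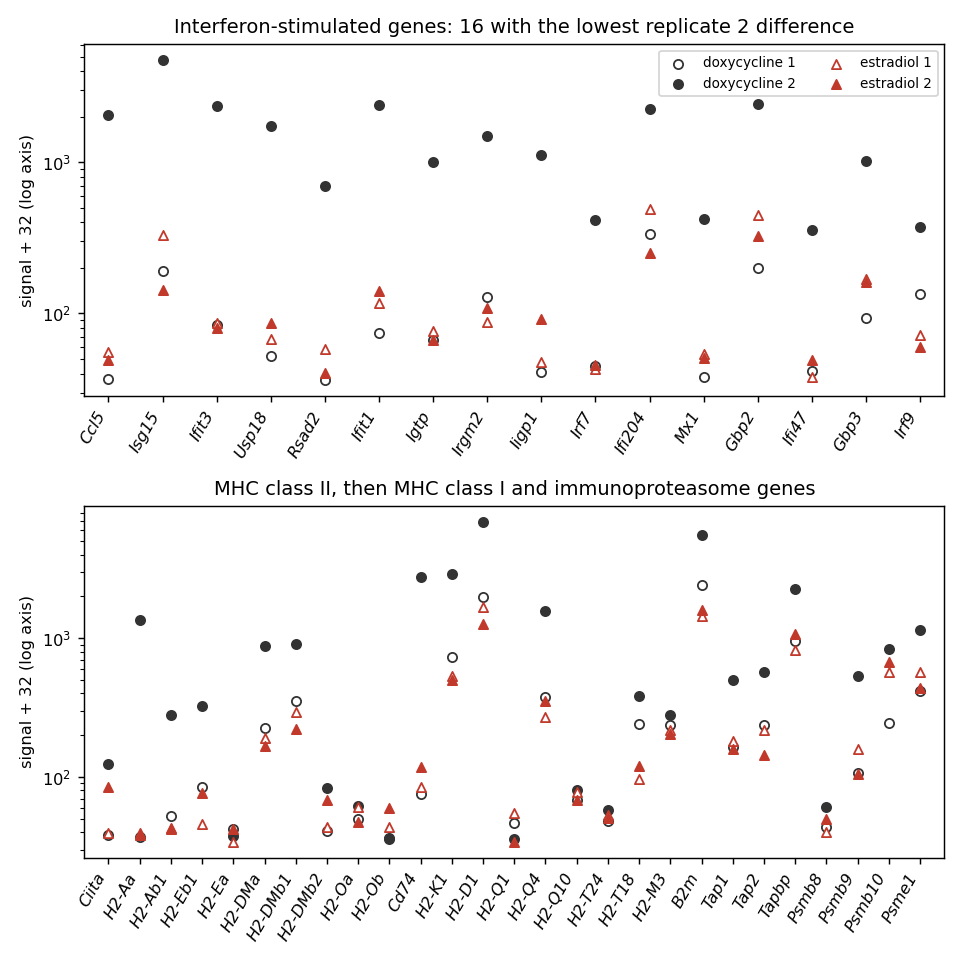
Signal + 32 on a log axis on the 4 arrays for the 16 interferon-stimulated genes with the lowest replicate 2 difference (top) and for MHC and immunoproteasome genes (bottom), 1 symbol per array. Doxycycline replicate 2 (filled circles) stands above the other 3 arrays for most genes, and both estradiol arrays lie near doxycycline replicate 1.

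Genes reported as IRF-1 targets gave no common direction, in a list not split by whether IRF-1 is reported to raise or lower a gene. Of 27 measured, 7 were lower (25.9%) and 2 higher (7.41%) without overlap, against 22.1% and 24.5% of all named genes. The median was -0.32, or -0.01 without doxycycline replicate 2. The 2 that were higher were Ccnd1, which the title of the study names as lowered in tumour suppression through IRF-1, and Birc5, the apoptosis inhibitor survivin. Oncogene state and estradiol changed together here, so the Ccnd1 difference cannot be set against that title. Birc5 passed at 94.2 and 48.8 with doxycycline and 293.1 and 258.7 with estradiol (1.61, SE 0.29). Psmb9, an immunoproteasome subunit, was at 75.1 and 501.3 against 126.9 and 72.4, and Gbp2, a guanylate-binding protein, at 168.9 and 2377.0 against 413.9 and 293.3. On both estradiol arrays Gbp2 lay above doxycycline replicate 1 and below doxycycline replicate 2. Of 15 genes reported to respond to estrogen, 6 were lower and 1 higher without overlap, with a median of -0.17, or 0.03 without doxycycline replicate 2, and none passed. Pgr, the progesterone receptor, stayed between 1.8 and 12.3 on all 4 arrays.

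The lists of BCL-2 and caspase genes, p53 targets and antioxidant genes had medians between -0.10 and 0.13. Of 24 BCL-2 family and caspase genes, 7 were lower (29.2%) and 3 higher (12.5%) without overlap, against 22.1% and 24.5% of all named genes. Their median was -0.05, and none passed. Casp4 and Casp8, an inflammatory and a death-receptor caspase, differed by -0.87 (SE 0.29) and -0.53 (SE 0.26). Of 23 p53 targets, 7 were lower (30.4%) and 5 higher (21.7%), with a median of -0.10, or 0.05 without doxycycline replicate 2. Ptprv, a receptor phosphatase, passed at 11.4 and 12.3 with doxycycline and 107.3 and 135.2 with estradiol (1.80, SE 0.27). Both of its doxycycline signals lay under the filter's cut. Of 38 antioxidant genes, 13 were higher (34.2%) and 5 lower (13.2%), with a median of 0.13. Gsr, glutathione reductase, passed at 139.0 and 119.9 against 425.9 and 493.2 (1.61, SE 0.21). Txnip, an inhibitor of thioredoxin and of glucose uptake, lay lower, at 618.3 and 881.3 against 314.6 and 158.1 (-1.59, SE 0.34), and did not pass. A dimmer Txnip probe set overlapped between the groups, at 49.2 and 84.4 against 92.4 and 73.0 (0.23, SE 0.30).

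The 30 genes with the largest differences included some outside the lists. They were taken by size, so their size is a description. In all 30 the groups did not overlap, and 23 passed. Their adjusted p over all probe sets lay between 0.162 and 0.222 by limma. Of the lower ones, H1f2, a linker histone, was at 414.2 and 287.5 with doxycycline and 20.6 and 56.6 with estradiol (-2.47, SE 0.34). Xdh, an enzyme of purine breakdown, was at 326.2 and 643.6 against 87.4 and 38.6 (-2.42, SE 0.40), and Igsf10, an immunoglobulin-domain protein, at 1377.6 and 626.4 against 169.8 and 94.8 (-2.59, SE 0.42). These 3 passed. Sox4, a transcription factor of development, passed at 2902.0 and 1697.9 against 581.4 and 388.3 (-2.15, SE 0.33). Glipr2, a Golgi-linked protein, passed at 493.9 and 724.9 against 142.0 and 151.5 (-1.82, SE 0.24). Emb, embigin, Ptgfr, the prostaglandin F receptor, Agt, angiotensinogen, and Plpp3, a lipid phosphatase, differed by -2.09 (SE 0.55), -2.34 (SE 0.57), -2.01 (SE 0.47) and -1.81 (SE 0.46) and did not pass. Among the higher ones, Cck, a peptide hormone gene, passed at 19.1 and 6.1 against 110.0 and 163.3 (1.92, SE 0.32), with both doxycycline signals under the filter's cut. Of the 30 genes, 13 were read by other probe sets too, 16 in all. In 4 of those 16, all dim and reading Emb, Pa2g4, Pdgfra and Ptgfr, the sign was opposite.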

How the data were processed

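Labelled RNA from 6 µg of total RNA per sample was hybridised to Affymetrix MG-U74Av2 arrays. The deposited values are linear intensities computed by the authors with MAS5, per the submitters' processing notes. All arrays were scaled to 1 level, a trimmed mean of 150.1 to within rounding with 2% of probe sets left out at each end. A genome build is not given in the sources used here.

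Of 12488 probe sets, 66 controls were left out. The platform table gave 1 gene symbol for 10833, several for 396 and none for 1193, and genes are named only from the first kind. Signals were put on the log2(signal + 32) scale. The 4 arrays were fitted with limma 3.58.1 (lmFit, eBayes with a trend) in R 4.3.3, with Benjamini-Hochberg adjustment over all probe sets and 2 residual degrees of freedom. In 20 simulations on 12422 probe sets with 200 changed, the test recovered 15% of 2-fold, 69.9% of 4-fold and 92.7% of 8-fold changes. False calls were 3.87%. On the deposited values the fit over all probe sets passed 0, so these shares may not hold there. No simulation is given for the fit without dim probe sets.

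Named genes are Ccnd1, Irf1, Myc, Hras and Cdkn1a, the 15 largest differences in each direction, and up to 4 members of each list by smallest unadjusted p. In the limma fit over all probe sets, 0 of 12422 had an adjusted p under 0.05. The 15 places in each direction therefore all went to probe sets with an unadjusted p under 0.01 in that fit. Other members, at the far or opposite end of a list or bright on 1 array, were chosen after their values were seen. The comparison, the gene lists and the motifs were chosen with earlier results of these data known. Per the labels, RNA of replicate 1 was extracted with RNeasy and of replicate 2 with TRIZOL, which pairs the numbers across groups. The deviations of same-numbered arrays from their group means correlated at -0.0347 across probe sets. Offsets of 16 and 64, quantile normalization, no trend, all 6 arrays, a replicate block, the dim probe sets left out, the mean over probe sets and each array left out were the alternatives.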

Additional observations from a re-analysis of the deposited data

How the results depend on the processing

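The count of probe sets past an adjusted p of 0.05 with limma depended on the dim probe sets. It was 0 over all of them and 128 without the lowest 40%. The replicate number as a block, which pairs the arrays, gave 0 over all probe sets and 332 without the lowest 40%. Where all were kept, leaving out each array in turn gave 0 to 10, the latter without doxycycline replicate 1. Where the lowest 40% were left out, it gave 562 without doxycycline replicate 1, 284 without doxycycline replicate 2, 223 without estradiol replicate 1 and 0 without estradiol replicate 2. The count at least 2-fold apart in both replicate numbers went from 227 to 143 with an offset of 64, and to 484 with doxycycline replicate 2 alone as the control. The cause was not tested. Fits that join the filter with another choice, and those with 1 doxycycline array, were chosen after seeing the data.

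Of 205 list medians under alternatives other than leaving out an array, 172 moved by less than the spread of the 4 array pairs. Averaging a gene's probe sets gave 0.61 for nucleotide synthesis, 0.21 for G1 to S control, 0.80 for ribosome biogenesis, 0.35 for translation factors, 0.39 for the proteasome, 0.20 for the respiratory chain, 0.34 for heat shock, -0.45 for interstitial matrix, -0.16 for actin genes, -0.18 for growth factor receptors, -0.37 for the lysosome and -0.44 for fibroblast markers. Leaving out the dim probe sets gave -0.31 for CDK inhibitors, 0.19 for the Myc network, -0.71 for interstitial matrix, -0.74 for matrix proteases, -0.43 for actin genes, -0.87 for chemokines, -0.11 for integrins and -0.80 for growth factor receptors. It gave -0.09, -0.15, -0.16 and -0.29 for leukocyte, epithelial, endothelial and muscle markers. An offset of 16 gave 0.50 for the proteasome, -0.61 for interstitial matrix, -0.38 for chemokines and -0.27 for growth factor receptors. An offset of 64 gave 0.80 for ribosome biogenesis, 0.21 for the respiratory chain, -0.47 for interstitial matrix and -0.18 for growth factor receptors, and quantile normalization gave -0.26 for the last.

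Without doxycycline replicate 2 the median turned positive for interferon-stimulated genes (0.11), MHC class II (0.09), p53 targets (0.05) and estrogen-responsive genes (0.03), and for ERK output (0.04) and integrins (0.03), which lay near 0. Over the arrays left out in turn, the first 4 ranged from -2.33 to 0.11, -1.83 to 0.09, -0.19 to 0.05 and -0.37 to 0.03. IRF-1 targets ranged from -0.60 to -0.01, MHC class I from -1.41 to -0.06, ERK output from -0.05 to 0.07, cholesterol synthesis from -0.21 to 0.10, matrix proteases from -0.48 to -0.17, cross-linking enzymes from -0.37 to -0.11 and CDK inhibitors from -0.20 to -0.06. Mitosis ranged from 1.03 to 1.66, G1 to S control from 0.18 to 0.28, the Myc network from 0.06 to 0.15, ribosome biogenesis from 0.80 to 0.98, ribosomal proteins from 0.01 to 0.29, the proteasome from 0.41 to 0.50 and glycolysis from 0.29 to 0.67. Fatty acid synthesis ranged from -0.06 to 0.27, the unfolded protein response from -0.59 to -0.31, interstitial matrix from -0.51 to -0.44, basement membrane from -0.41 to -0.02, actin genes from -0.33 to -0.15 and the TGF-beta pathway from -0.28 to -0.13. Chemokines ranged from -0.29 to -0.13, integrins from -0.13 to 0.03, growth factor receptors from -0.30 to -0.16, BCL-2 and caspase genes from -0.06 to 0.04 and antioxidant genes from 0.10 to 0.25. Leukocyte markers ranged from -0.05 to 0.04, epithelial from -0.18 to 0.02, endothelial from -0.12 to -0.05 and muscle from 0.00 to 0.09.

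Of 2127 values for the 179 named probe sets under alternatives, 2082 stayed on the same side of the threshold and 45 passed it in addition. Of all of them, 10 values of 8 probe sets changed sign, each with an array left out and none past the threshold, and both Cdkn1a probe sets were among them. Signals under about 32, where 40.7% to 42.1% of probe sets lay on each array, limit what can be seen.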

Other observations

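Among probe sets that passed limma's test without the dim ones, several genes belonged to none of the lists, and they were chosen after their values were seen. Genes of the S phase and of chromatin were among the higher ones. They included Dtl, which marks Cdt1 for destruction (1.58, adjusted p = 0.0475), Tipin, of the replication fork (1.52, adjusted p = 0.0337), and Hat1, which acetylates new histones (1.39, adjusted p = 0.0475). H2az1, a histone variant, and Kmt5a, which methylates histone H4, differed by 1.58 and 1.59. Genes of folate and methionine metabolism were there as well. Slc19a1, the folate carrier, differed by 1.83, Ahcy, which clears S-adenosylhomocysteine, by 1.73, and Psat1, of serine synthesis, by 1.22. Genes of RNA handling and nuclear transport among them were Alyref, an mRNA export adaptor (1.34), the splicing subunits Lsm2 (1.39) and Lsm4 (1.32), Kpnb1, importin beta (1.44), and Rangap1, of the Ran cycle (1.41).

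The lower ones held receptors and metabolic enzymes. Nrp1, a co-receptor for VEGF and semaphorins, had a signal of 526.6 and 597.6 with doxycycline and 232.2 and 142.0 with estradiol (-1.47). F2r, the thrombin receptor, differed by -1.32, Vdr, the vitamin D receptor, by -1.28 and Ifnar1, a chain of the type I interferon receptor, by -1.41. Cyp1b1, an oxidase of steroids and foreign compounds, was at 738.1 and 981.0 with doxycycline and 218.1 and 232.3 with estradiol (-1.78), and Cpt1a, which brings fatty acids into mitochondria, at 942.9 and 1054.0 with doxycycline and 355.1 and 303.2 with estradiol (-1.51). Ifnar1 was at 118.5 and 118.5 with doxycycline and 35.8 and 15 with estradiol, below both doxycycline arrays on both estradiol arrays. Its signal on estradiol replicate 2 lay under the filter's cut.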
